A study of Mus musculus with 12 samples.

Results

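The SR family is a set of splicing factors that carry RNA recognition motifs followed by a tail rich in arginine-serine repeats. Its members here were taken by gene name, with earlier results of these data already known: Srsf1, Srsf2, Srsf3, Srsf4, Srsf5, Srsf6, Srsf7, Srsf9, Srsf10 and Srsf11, 10 of the 24421 genes counted. All 10 passed the filter on low counts, which kept 14497 genes. They were followed in polyA RNA-seq of mouse E14 embryonic stem cells, an established line from a male embryo, that all expressed dCas_Alkbh5, a fusion of a catalytically inactive Cas protein with Alkbh5, the enzyme that takes the m6A mark off RNA. Every group was grown on gelatin in serum with LIF, transfected with a guide plasmid, selected for 3 days with 8 µg/mL blasticidin and afterwards kept in 200 nM INK128 over 5 days, which blocks the kinase mTOR and puts such cells into a paused state. The 12 libraries formed 3 groups of 4 that, by their labels, differ in the guide: a guide without a target (NT), Mycn-gRNA2 or Mycn-gRNA3, the latter named for Mycn, a growth-promoting transcription factor of the MYC family. The study asks what follows when m6A is removed from the Mycn transcript in paused cells. A single control guide was used, cells without INK128 are not part of this series, and nothing in the labels says that replicates came from separate cultures, so the p-values rest on a spread between samples that may be technical.

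SR proteins bind short purine-rich and other enhancer motifs in exons and recruit the U1 snRNP and U2AF to the neighbouring splice sites. Kinases of the SRPK and CLK families phosphorylate the arginine-serine tail, which sets where the proteins reside and when they act. Most SR genes also limit their own level: the protein promotes inclusion of a "poison" exon with an early stop codon into its own transcript, which is then degraded by nonsense-mediated decay. Srsf3 and Srsf10 are also known partners of YTHDC1, the nuclear reader of m6A, and act in opposite directions on exons near m6A sites. In embryonic stem cells, SR proteins are needed for growth and for the splicing patterns of the pluripotent state.

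The libraries held 17248564 to 33819855 endogenous reads and 1.03% to 1.6% of reads on ERCC RNAs, synthetic transcripts added to the RNA of 200000 cells per sample. Mycn stood at 136 to 146 CPM (reads scaled to library size with TMM factors) in NT, 205 to 262 under Mycn-gRNA2 and 258 to 292 under Mycn-gRNA3, so all guide libraries lay above all NT libraries. Alkbh5 lay between 86.0 and 108 CPM in all 12 libraries, and its counts do not separate the cell's gene from the fusion. All 10 embryonic stem cell markers were present, with a summed level of 5184 to 5760 CPM in NT, 4020 to 4889 under Mycn-gRNA2 and 4880 to 5049 under Mycn-gRNA3, and 0 of them were called higher and 3 lower with both guides, where 14.9% of all genes were called higher and 13% lower. The 10 primitive endoderm markers summed to 204.0 to 275 CPM in NT and to 321 to 382 in the guide libraries, with 7 called higher and 1 lower, and no marker was at 0 in a group. The 10 fibroblast markers summed to 17.7 to 23.2 CPM in every library, with Postn and Lum at 0 reads in NT, and 4 were called higher and 1 lower. The 6 neuroectoderm markers summed to 220.0 to 247 CPM in NT and to 189.7 to 227 in the guide libraries, and all 6 were called, 4 higher and 2 lower. The 4 Y chromosome genes summed to 0.0449 to 0.181 CPM in NT and to 32.4 to 83.8 in the guide libraries. This difference runs along the same line as every comparison of guides with NT below, so a difference between the cell populations and an action of the guides cannot be told apart, and the part of the marker genes in the results was not tested.

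As a family, the SR genes held a near-constant part of the RNA while its members shifted against each other. Their summed level was 3186 ± 135 CPM under NT, 3217 ± 230 under Mycn-gRNA2 and 3208 ± 117 under Mycn-gRNA3 (each with its SD, n = 4), and the groups overlapped. Between 58191 and 108310 reads per library fell on the 10 genes, or 0.286% to 0.345% of the endogenous reads. Levels between genes were compared per length, as RPKM from the exon length in the deposited table. In NT, Srsf5 was highest at 273 ± 17.7 RPKM, followed by Srsf2 at 188 ± 8.31, Srsf3 at 156 ± 12.5, Srsf6 at 131 ± 3.56, Srsf7 at 125 ± 8.58, Srsf11 at 88.8 ± 5.29, Srsf1 at 80.1 ± 3.79, Srsf10 at 52.7 ± 2.29, Srsf9 at 44.3 ± 4.14 and Srsf4 at 8.37 ± 0.96 (SD, n = 4 each). Within this order the ranges of the 4 libraries overlapped for Srsf6 and Srsf7 and for Srsf11 and Srsf1, and for no other neighbours. Among all tested genes, 8 members ranked at or above the 91.7th percentile of RPKM in NT, Srsf9 at the 89.7th and Srsf4 at the 54.7th. The exon length joins all exons listed for a gene, so this order and these ranks also depend on the annotation. The rank of Srsf4 is uncertain, since 68.8% of its counted exon bases overlap a gene on the opposite strand. With the Mycn guides the top of the order changed, since Srsf2 reached 247 ± 13.4 RPKM and Srsf5 stood at 234 ± 15.2 (SD, n = 8 each), with overlapping ranges.

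Relative to the transcriptome, 2 of the 10 members rose with both guides, 3 fell and 5 did not pass the test (edgeR's quasi-likelihood F test on the counts with TMM scaling, adjusted p under 0.05 by Benjamini-Hochberg over all 14497 genes). Srsf1 and Srsf2 rose, and Srsf5, Srsf7 and Srsf11 fell. Of all genes tested, 14.9% were called higher and 13% lower in this comparison, against 20% and 30% of the 10 members, a number too small to read a family-wide direction from. The median log2 fold change of the members was -0.04, against -0.0027 over all genes. Every change was small: the largest rise was 1.31-fold (Srsf2), and the lowest level of a called member was 0.835 times that of NT (Srsf11). In the plot of levels by library the shift of Srsf1 and Srsf2 is visible as separate clouds of points, while the falls overlap the NT range in at least 1 guide library.

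**Figure D1:**
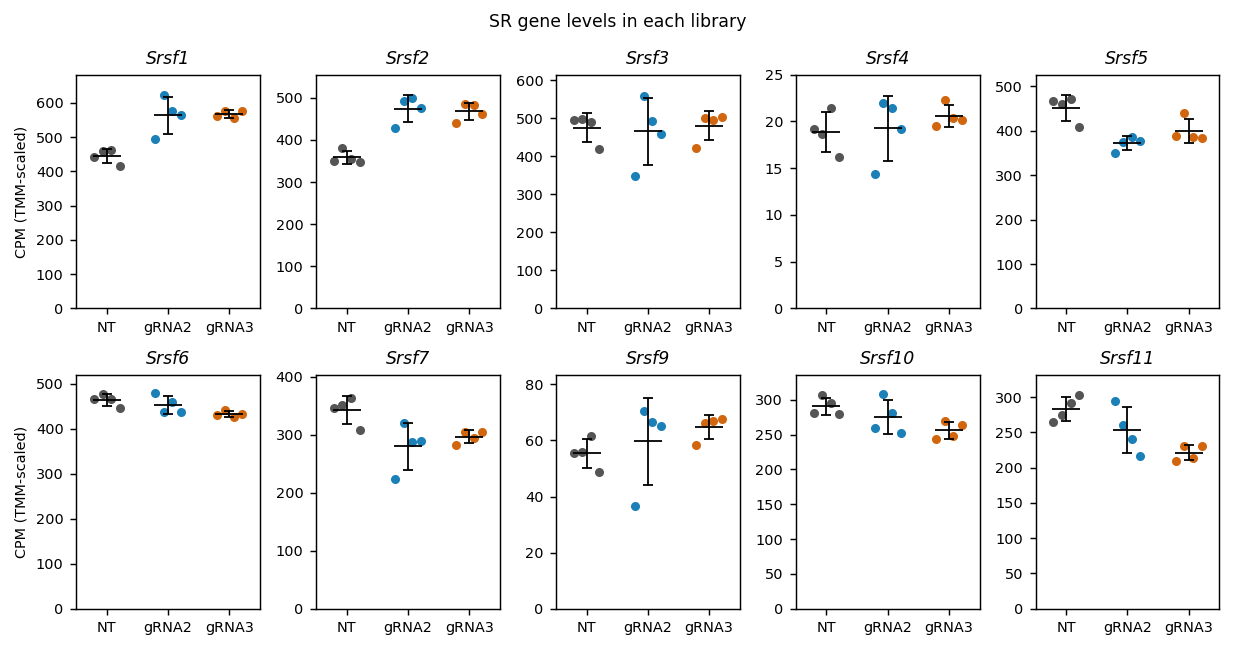
Level of each SR gene in each library in CPM (TMM-scaled, vertical axes from 0) for the 4 NT, 4 Mycn-gRNA2 and 4 Mycn-gRNA3 libraries; points are libraries, the long bar is the group mean and the whiskers are 1 SD. For Srsf1 and Srsf2 all guide libraries lie above all NT libraries, and for Srsf3, Srsf4, Srsf7 and Srsf9 the Mycn-gRNA2 point drawn furthest left (replicate 1) lies lowest.

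Srsf1 is the prototype of the family, active in constitutive and alternative splicing and also in mRNA export, nonsense-mediated decay and translation. It lies at chr11:88047373-88053757 on the plus strand (mm10, ENSMUSG00000018379). Its level was 442, 461, 462 and 417 CPM in NT replicates 1 to 4. With Mycn-gRNA2 it was 493, 622, 576 and 565 CPM. With Mycn-gRNA3 it was 562, 577, 557 and 576 CPM. The lowest guide library, Mycn-gRNA2 replicate 1, lay above the highest NT library, and the Mycn-gRNA3 libraries were closest together, at 568 ± 10.3 CPM (SD, n = 4). Srsf1 rose 1.27-fold with both guides, by 0.35 on the log2 scale (standard error 0.0608 and adjusted p = 0.00101 in edgeR). The rise was 0.34 with Mycn-gRNA2 (standard error 0.0693 and adjusted p = 0.00445 in edgeR) and 0.35 with Mycn-gRNA3 (standard error 0.0692 and adjusted p = 0.00248 in edgeR).

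Srsf9, the member most like Srsf1 in its pair of RNA recognition motifs, did not pass the test. It lies at chr5:115327177-115333080 on the plus strand. Its level was 48.9 to 61.6 CPM in NT and 58.3 to 67.7 with Mycn-gRNA3, which overlap. With Mycn-gRNA2 it was 36.5 CPM in replicate 1 and 65.1 to 70.4 in the other 3 libraries. The difference with both guides was 0.16 on the log2 scale (standard error 0.136 and adjusted p = 0.394 in edgeR). Without Mycn-gRNA2 replicate 1 it was 0.25 and was called (adjusted p = 0.00463 in edgeR), so the call on Srsf9 rests on that library.

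Srsf2, also known as SC35 and a marker of nuclear speckles, remains in the nucleus and binds exonic enhancers through a single RNA recognition motif. It lies at chr11:116849897-116853094 on the minus strand. Its level was 349.5, 382, 355 and 348 CPM in NT, and 428, 493, 499 and 475 CPM with Mycn-gRNA2. With Mycn-gRNA3 it was 440.1, 485, 484 and 462 CPM. Here too no guide library reached down to the NT range. Srsf2 rose 1.31-fold with both guides, by 0.39 on the log2 scale (standard error 0.0563 and adjusted p = 0.000223 in edgeR), with 0.40 for Mycn-gRNA2 (adjusted p = 0.000864 in edgeR) and 0.38 for Mycn-gRNA3 (adjusted p = 0.000858 in edgeR). Srsf1 and Srsf2 were the 2 members for which every guide library lay above every NT library in CPM. Of all genes tested, 8.56% were separated upward in this way and 6.87% downward, the latter with 0 members.

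Srsf3 and Srsf7 are small, closely related members that shuttle to the cytoplasm and act as adaptors of the export receptor NXF1. Srsf3 lies at chr17:29032660-29043372 on the plus strand. Its level was 496, 497, 490.2 and 419 CPM in NT, and 349, 559, 494 and 459.6 CPM with Mycn-gRNA2. With Mycn-gRNA3 it was 423, 501, 495 and 502 CPM. The groups overlapped throughout, and the difference with both guides was -0.0082 on the log2 scale (standard error 0.101 and adjusted p = 0.961 in edgeR). The Mycn-gRNA2 libraries spread most, at 465 ± 87.7 CPM (SD, n = 4).

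Srsf7, which differs from Srsf3 by a zinc knuckle, lies at chr17:80200080-80207305 on the minus strand. Its level was 347, 352, 364 and 309 CPM in NT, and 223.5, 319.8, 288 and 289 CPM with Mycn-gRNA2. With Mycn-gRNA3 it was 282, 306, 294 and 305 CPM, each below every NT library. Srsf7 fell by 0.25 with both guides on the log2 scale (standard error 0.0793 and adjusted p = 0.0304 in edgeR). With Mycn-gRNA2 it fell by 0.29 (standard error 0.0926 and adjusted p = 0.0439 in edgeR), and with Mycn-gRNA3 the value was -0.21, which was not called (standard error 0.0924 and adjusted p = 0.107 in edgeR). The call with Mycn-gRNA2 was weak: it was lost in 9 of the fits that left out 1 library (without NT replicate 1, 2 or 3, Mycn-gRNA2 replicate 3 or 4, or any Mycn-gRNA3 replicate), with adjusted p in edgeR up to 0.121, and when only the groups compared were fitted (adjusted p = 0.109 in edgeR). Leaving out NT replicate 1, 2 or 3 or Mycn-gRNA3 replicate 1 ended the call for both guides, with adjusted p between 0.0503 and 0.103 and values between -0.30 and -0.20 over all libraries left out in turn.

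For Srsf3 and Srsf7 the deposited gene counts include the poison exon. The exons listed for counting in the deposited table hold it whole: 456 bases at chr17:29039454-29039909 for Srsf3, 15% of its counted exon bases, and 460 bases at chr17:80204622-80205081 for Srsf7, 16.7%. The counts of these genes therefore join the coding transcript and the one bound for decay, and a gene total cannot tell a shift between them from another change in level. The reading frame meets its stop codon shortly after it enters the exon. The stretches from the exon's start to that stop are shown because they carry the switch between both products. They were taken from GENCODE M21 transcript sequences and are given 5′ to 3′ on the gene's strand, with the stop codon in capitals. In mm10 they lie at chr17:29039454-29039487 (Srsf3) and chr17:80205054-80205081 (Srsf7, minus strand).
Srsf3: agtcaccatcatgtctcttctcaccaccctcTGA
Srsf7: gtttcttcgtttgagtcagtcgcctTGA
The annotated poison exons of Srsf4, Srsf9 and Srsf11 had 0 bases among the counted exons, so reads within them did not enter the totals of these genes. Transcripts bound for decay are also annotated for Srsf1 (2), Srsf2 (2), Srsf5 (1) and Srsf6 (1). The search, limited to exons apart from all coding exons, found no such exon for them. Gene totals do not separate reads on exons shared by both kinds of transcript, so all these totals may join both products.

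Srsf4, Srsf5 and Srsf6 form a subfamily with a pair of RNA recognition motifs, of which Srsf5 was the 1 called relative to the transcriptome. Srsf5 lies at chr12:80945504-80950507 on the plus strand. Its level was 466, 461, 472 and 408.5 CPM in NT, and 351, 375, 387 and 377 CPM with Mycn-gRNA2. With Mycn-gRNA3 it was 389, 440.3, 385 and 383 CPM, where replicate 2 reached into the NT range. Srsf5 was the 1 member with all Mycn-gRNA2 libraries below all NT libraries, a pattern of 9.35% of all genes (10.1% lay above). It fell by 0.23 with both guides on the log2 scale (standard error 0.0575 and adjusted p = 0.00924 in edgeR) and by 0.28 with Mycn-gRNA2 (standard error 0.067 and adjusted p = 0.0115 in edgeR). With Mycn-gRNA3 the value was -0.18, which was not called (standard error 0.0669 and adjusted p = 0.0628 in edgeR).

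Srsf6, at chr2:162931508-162937120 on the plus strand, was not called on this scale. It stood at 464 ± 12.6 CPM in NT, 454 ± 19.7 under Mycn-gRNA2 and 433 ± 6.60 under Mycn-gRNA3 (SD, n = 4 each), and the difference with both guides was -0.07 on the log2 scale (standard error 0.0454 and adjusted p = 0.308 in edgeR). Srsf4, at chr4:131873639-131901725 on the plus strand, had the fewest reads, 330 to 674 per library, and its level was 18.9 ± 2.16, 19.3 ± 3.49 and 20.6 ± 1.19 CPM in the same order of groups (SD, n = 4 each). Its difference was 0.08 (standard error 0.107 and adjusted p = 0.633 in edgeR). Of the 2254 counted exon bases of Srsf4, 1551 (68.8%) overlap Gm12992, a gene on the opposite strand. With the strand setting of the counting not given in the sources used here, the values of Srsf4 are uncertain.

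Srsf10 turns into a splicing repressor when it loses its phosphates in mitosis or heat shock. It lies at chr4:135856071-135869899 on the plus strand and stood at 290 ± 12.6 CPM in NT, 275 ± 24.7 under Mycn-gRNA2 and 256 ± 12.1 under Mycn-gRNA3 (SD, n = 4 each). The difference with both guides was -0.13 on the log2 scale and was not called (standard error 0.0596 and adjusted p = 0.126 in edgeR). All Mycn-gRNA3 libraries lay below all NT libraries for Srsf10, as they did for Srsf6, Srsf7 and Srsf11, a pattern of 18.5% of all genes (20.8% lay above), yet the value of -0.18 for that guide was not called either (standard error 0.0692 and adjusted p = 0.0681 in edgeR).

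Srsf11, also known as p54, contacts U2AF at the end of the intron. It lies at chr3:158010493-158036639 on the minus strand. Its level was 265, 275, 292 and 302 CPM in NT, and 295, 260.2, 241 and 217 CPM with Mycn-gRNA2. With Mycn-gRNA3 it was 210.0, 231, 213 and 230.2 CPM. The Mycn-gRNA3 libraries all lay below NT, while Mycn-gRNA2 replicate 1 lay among the NT libraries. Srsf11 fell by 0.26 with both guides on the log2 scale (standard error 0.0728 and adjusted p = 0.0164 in edgeR) and by 0.36 with Mycn-gRNA3 (standard error 0.085 and adjusted p = 0.00745 in edgeR). With Mycn-gRNA2 the value was -0.16, which was not called (standard error 0.0849 and adjusted p = 0.215 in edgeR). Leaving out NT replicate 3 or 4 ended the call for both guides (adjusted p = 0.0558 and 0.0648 in edgeR).

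By guide, 2 members were called higher and 2 lower with Mycn-gRNA2, where 10.1% of all genes were called higher and 7.05% lower. With Mycn-gRNA3, 2 were called higher and 1 lower, where the shares over all genes were 14.8% and 12.2%. Srsf1 and Srsf2 were called with each guide, Srsf5 and Srsf7 under Mycn-gRNA2 and Srsf11 under Mycn-gRNA3. These lists come from comparisons that share the NT libraries. The guides themselves were compared directly, and 0 of 10 members were called between Mycn-gRNA3 and Mycn-gRNA2 (edgeR), as were 0% of all genes in either direction. DESeq2 also called 0 members, and at an unadjusted p under 0.05 there was 1, Srsf11 (difference -0.20 on the log2 scale, standard error 0.0849, unadjusted p = 0.0367 and adjusted p = 0.549 in edgeR). The differences between the guides ranged from -0.20 for Srsf11 to 0.12 for Srsf9 (SE 0.156), so the calls present with a single guide were not shown to differ between guides.

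**Figure D2:**
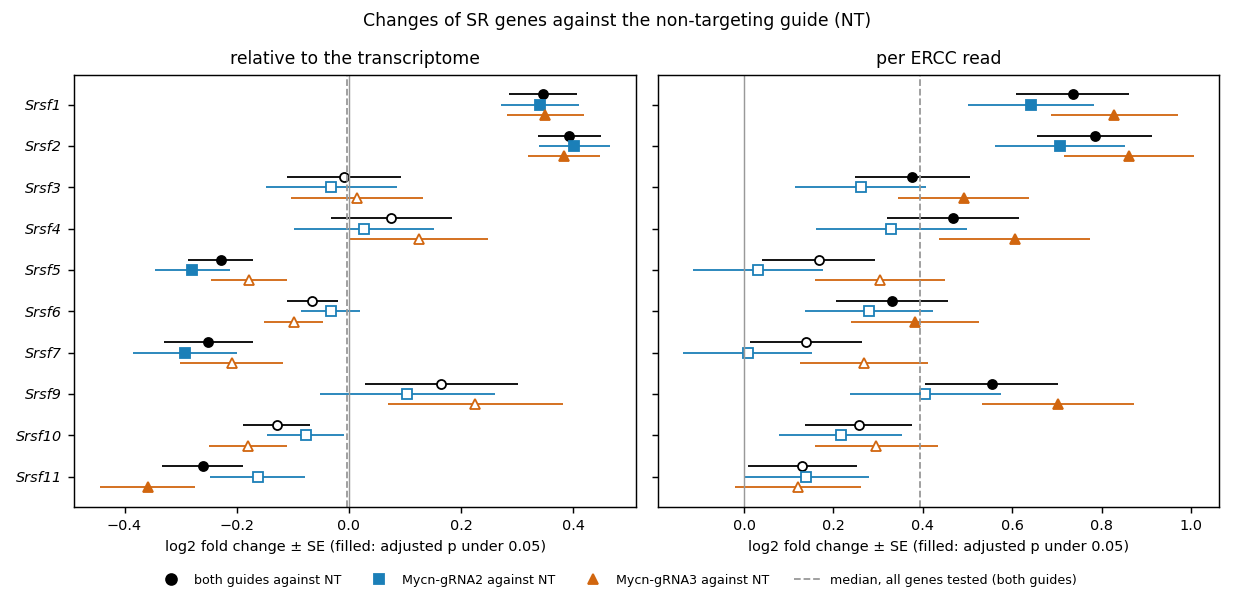
Log2 fold changes of the 10 SR genes against NT with their SE, for both guides together (circles), Mycn-gRNA2 (squares) and Mycn-gRNA3 (triangles). The left panel is relative to the transcriptome and the right panel per ERCC read. Filled symbols have an edgeR adjusted p under 0.05. The dashed line is the median of all genes tested for both guides together. Per ERCC read this median is 0.39, and those with Mycn-gRNA2 (0.31) and Mycn-gRNA3 (0.48) are not drawn. On the left Srsf1 and Srsf2 sit at 0.34 to 0.40 with every guide, and on the right all 10 members lie above 0, on both sides of the dashed line.

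The replicates were not equally alike. Mycn-gRNA2 replicate 1 had the lowest Srsf3, Srsf4, Srsf5, Srsf7 and Srsf9 of all 12 libraries, the lowest summed SR level (2930 CPM) and the highest Srsf11 and Srsf6 of its group, and of all replicate pairs it differed most from Mycn-gRNA2 replicate 4 over all genes (chi-square per degree of freedom 72.2, against 8.63 for the closest pair). Without it, Srsf9 was called higher and Srsf11 lower with Mycn-gRNA2 (0.28, adjusted p = 0.0125 in edgeR, and -0.25, adjusted p = 0.015 in edgeR), and Srsf9 was called higher with Mycn-gRNA3 too (0.22, adjusted p = 0.0175 in edgeR). The members called lower with Mycn-gRNA3 went from 1 to 4, while such calls over all genes went from 1774 of 14497 to 2803 of 14631. The calls on Srsf1, Srsf2, Srsf5, Srsf7 and Srsf11 for both guides held without it. Replicates 1 and 2 alone left 0 calls among the members for both guides relative to the transcriptome, with adjusted p of 0.221 for Srsf1 and 0.171 for Srsf2, and 151 of 14496 genes were called higher and 27 lower in that fit. Replicates 3 and 4 alone kept these 5 calls, with 3324 of 14640 genes called higher and 3061 lower.

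**Figure D3:**
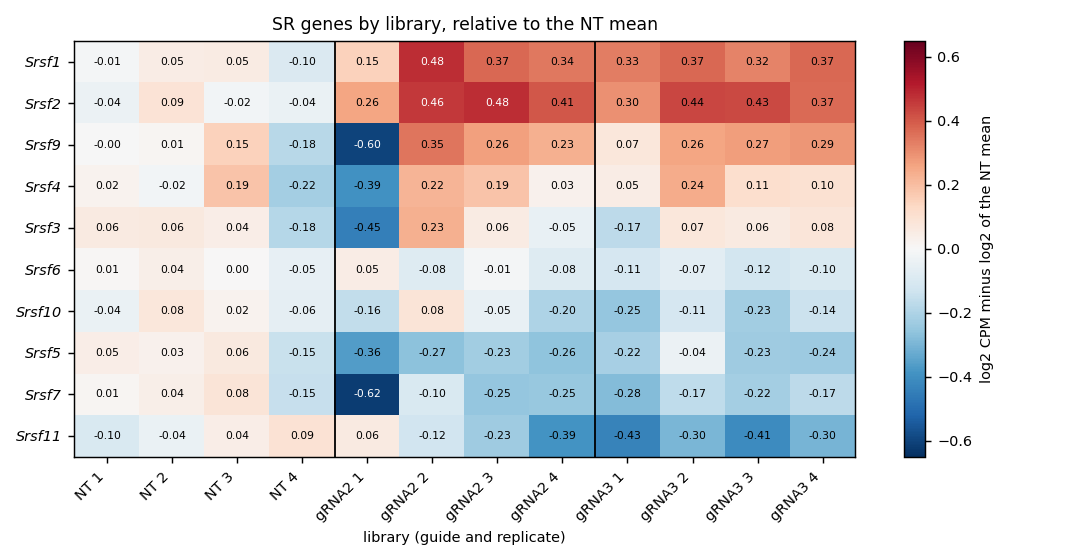
Level of each SR gene (rows) in each library (columns) as the log2 difference of its CPM from the NT mean; red is higher, blue lower, black lines separate the guides, and the number in each cell is the value. Srsf1 and Srsf2 are red in all 8 guide libraries, Srsf11 is blue in all guide libraries but Mycn-gRNA2 replicate 1, and that library is the darkest blue for Srsf7 and Srsf9.

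The share of each gene in the summed SR level does not depend on how libraries are scaled, and it moved the same way. Srsf1 made up 13.98% ± 0.104 of the summed CPM in NT, 17.5% ± 0.516 under Mycn-gRNA2 and 17.7% ± 0.485 under Mycn-gRNA3 (SD, n = 4 each). Srsf2 made up 11.3% ± 0.428, 14.7% ± 0.4003 and 14.6% ± 0.395. Srsf5 went from 14.2% ± 0.433 in NT to 11.6% ± 0.536 and 12.45% ± 0.622, and Srsf7 from 10.8% ± 0.324 to 8.68% ± 0.737 and 9.25% ± 0.1004. The guide libraries reached at most 13.2% for Srsf5 and 9.39% for Srsf7, below the lowest NT shares of 13.6% and 10.3%. The shares within a library add up to the whole, so larger shares of Srsf1 and Srsf2 lower those of the others at unchanged levels. In CPM, 0 members had every guide library below every NT library, a pattern of 6.87% of all genes. A figure over all genes does not exist for these shares. The share of Srsf11 was 8.92% ± 0.828, 7.93% ± 1.45 and 6.89% ± 0.168, with the NT and Mycn-gRNA2 ranges overlapping. Srsf3 kept 14.9% ± 0.665 in NT, 14.4% ± 1.77 under Mycn-gRNA2 and 14.96% ± 0.788 under Mycn-gRNA3.

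Per ERCC read, a scale that follows the amount of RNA rather than its make-up, 6 members were called higher with both guides and 0 lower, where 56.4% of all genes were called higher and 0.931% lower. A difference in the number of cells and a difference in RNA per cell cannot be told apart on this scale, because the ERCC RNAs were added to RNA and not to cells. The submitters give 200000 cells per sample and label their log2 values as normalized to cell number. The summed SR level was 209 ± 25.4 reads per 1000 ERCC reads in NT, 259.8 ± 35.4 under Mycn-gRNA2 and 293 ± 19.7 under Mycn-gRNA3 (SD, n = 4 each). The median log2 fold change was 0.35 over the members and 0.39 over all genes. Srsf1 rose by 0.74 (standard error 0.126 and adjusted p = 1.89e-05 in edgeR) and Srsf2 by 0.78 (standard error 0.129 and adjusted p = 1.01e-05 in edgeR), which is above the median gene. Srsf9 (0.55), Srsf4 (0.47), Srsf3 (0.38) and Srsf6 (0.33) were called nearer to it, with adjusted p in edgeR from 0.00289 to 0.0252. The members that fell relative to the transcriptome did not fall per ERCC read: the values were 0.17 for Srsf5, 0.14 for Srsf7 and 0.13 for Srsf11, none of them called, and Srsf10 stood at 0.26 (standard error 0.12 and adjusted p = 0.0647 in edgeR).

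In single libraries, Srsf1 stood at 26.1 to 33.9 reads per 1000 ERCC reads in NT, 39.7 to 54.2 under Mycn-gRNA2 and 47.2 to 53.7 under Mycn-gRNA3. Srsf2 stood at 20.8 to 28.1, 31.5 to 45.5 and 37.9 to 45.9. Every guide library lay above every NT library for both, as for 11.5% of all genes (0.235% lay below). With Mycn-gRNA3 this held for Srsf1, Srsf2, Srsf3, Srsf4, Srsf6 and Srsf9 and for 61.2% of all genes (0.531% below), and with Mycn-gRNA2 for Srsf1 and Srsf2 and for 11.8% (0.69% below). Srsf11 overlapped, at 15.8 to 20.25 in NT, 16.6 to 24.45 under Mycn-gRNA2 and 18.9 to 21.5 under Mycn-gRNA3. With Mycn-gRNA2 the called members on this scale were Srsf1 and Srsf2 (26.3% of all genes higher, 0.517% lower), and with Mycn-gRNA3 they were Srsf1, Srsf2, Srsf3, Srsf4, Srsf6 and Srsf9 (60.7% higher, 0.504% lower). The direct comparison of the guides called 0 members per ERCC read, where 0.0069% of all genes were called higher and 0% lower. Some calls depended on single control libraries: Srsf3 was lost without NT replicate 1 or 4, Srsf4 without NT replicate 4 (adjusted p = 0.0629 in edgeR), and Srsf6 without NT replicate 1, 3 or 4, and 3 of the 6 calls were left without NT replicate 4. Over all genes, 5838 of 14633 were called higher with both guides without NT replicate 4, against 8177 of 14497 with all libraries. With Mycn-gRNA3, the call on Srsf6 was lost in 5 fits, those leaving out NT replicate 1, NT replicate 4 or 1 of Mycn-gRNA3 replicates 1 to 3.

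Promoters are shown for the members that were called, Srsf1 and Srsf2 (higher) and Srsf5, Srsf7 and Srsf11 (lower), so that both directions can be read side by side. RefSeq entries on GRCm38.p6, the assembly behind mm10, were found for all 10 members, and the 250 bases before the transcription start are given 5′ to 3′ on the gene's strand. They lie at chr11:88047123-88047372 (Srsf1), chr11:116853095-116853344 (Srsf2, minus strand), chr12:80945249-80945498 (Srsf5), chr17:80207306-80207555 (Srsf7, minus strand) and chr3:158036607-158036856 (Srsf11, minus strand). For Srsf11 the RefSeq start lies 33 bases downstream of the first base counted, so the last 33 bases printed fall within the span counted for the gene. For Srsf5 the RefSeq start lies 5 bases upstream of the first base counted. Capitals mark CCAAT, the NF-Y box, and CCGGAAG, a core read by ETS factors, on either strand; which motifs to mark was chosen after the matches were seen.
Srsf1: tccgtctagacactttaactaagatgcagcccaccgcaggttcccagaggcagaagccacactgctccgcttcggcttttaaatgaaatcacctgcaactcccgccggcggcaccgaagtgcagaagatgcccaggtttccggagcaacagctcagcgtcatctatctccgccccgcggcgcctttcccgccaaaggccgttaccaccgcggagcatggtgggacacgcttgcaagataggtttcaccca
Srsf2: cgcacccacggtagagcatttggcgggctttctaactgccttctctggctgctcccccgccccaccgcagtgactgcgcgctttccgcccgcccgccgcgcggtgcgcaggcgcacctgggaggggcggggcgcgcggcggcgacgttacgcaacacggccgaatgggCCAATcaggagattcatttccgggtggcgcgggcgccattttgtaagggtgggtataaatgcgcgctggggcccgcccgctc
Srsf5: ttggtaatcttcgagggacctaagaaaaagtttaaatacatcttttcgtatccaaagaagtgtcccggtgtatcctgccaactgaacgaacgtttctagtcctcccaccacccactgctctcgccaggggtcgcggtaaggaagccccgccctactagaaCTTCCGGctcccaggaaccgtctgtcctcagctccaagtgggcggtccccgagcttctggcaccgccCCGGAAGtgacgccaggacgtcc
Srsf7: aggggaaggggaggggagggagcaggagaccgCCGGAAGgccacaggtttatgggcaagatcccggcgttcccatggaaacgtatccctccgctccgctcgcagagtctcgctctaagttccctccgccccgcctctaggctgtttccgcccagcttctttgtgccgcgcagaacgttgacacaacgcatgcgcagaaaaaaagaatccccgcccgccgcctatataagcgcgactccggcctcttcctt
Srsf11: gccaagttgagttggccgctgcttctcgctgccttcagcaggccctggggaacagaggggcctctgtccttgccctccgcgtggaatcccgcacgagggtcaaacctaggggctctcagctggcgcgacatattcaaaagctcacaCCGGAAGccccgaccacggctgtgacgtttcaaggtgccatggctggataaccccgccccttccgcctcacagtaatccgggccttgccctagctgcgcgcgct
CCGGAAG occurred in all 3 promoters of the members that fell and in that of Srsf4, 4 of 10 in all, and in neither of those that rose. It was present in 6.91% of 32851 mouse promoters of this length, and in 15.7% of the 7728 with at least 17 CpG, the lowest number among the members. Only the exact letters CCGGAAG were searched. The printed promoters of Srsf1 and Srsf2 hold tttccgg, which is CCGGAAA on the other strand and differs from CCGGAAG in its last letter. The split between members that rose and fell therefore holds for these exact letters alone. For the other motifs the share of all promoters is followed by that of the CpG-rich ones. CCAAT occurred in Srsf2, Srsf3 and Srsf10 (33.8% and 30.4%). CACGTG, the E-box bound by MYC proteins, occurred in 0 of the 10 windows (6.02% and 9.94%), which says only that these letters are not in them. The GC box GGGCGG occurred in 9 members, all but Srsf3 (32.7% and 77.8%), TATAAA in Srsf2 and Srsf3 (12.4% and 2.86%), CGCGAG in Srsf3, Srsf4, Srsf9 and Srsf10 (9% and 29.4%) and TGACGT in Srsf3, Srsf6 and Srsf11 (6.47% and 11.8%). The longer TGACGTCA, which contains TGACGT (1.55% and 3.47%), and the NRF1 palindrome (0.782% and 2.23%) occurred in none. All 9 motifs were searched on both strands, and a match is a description of the sequence, not a binding site.

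By likeness over the 12 libraries (the root mean square difference of log2 CPM after centring each gene), Srsf1 and Srsf2 were each other's nearest member, at 0.0598. Srsf3 and Srsf4 formed such a pair at 0.0879, Srsf6 and Srsf10 at 0.0919 and Srsf5 and Srsf7 at 0.0982. Srsf9 was nearest to Srsf4 (0.11) and Srsf11, the member furthest from its nearest, to Srsf10 (0.138). Among 9370 other genes, those nearest to the mean of the 10 members were Txnrd1, Mrfap1 and Alyref, at 0.0302, 0.0309 and 0.0402. That mean joins members that rose and members that fell, so nearness to it is not likeness to any single member.

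Genes that work with SR proteins were followed as lists. Of 27 other splicing factors with arginine-serine tails, 1 was called higher and 7 lower with both guides relative to the transcriptome (14.9% and 13% of all genes), and their median was -0.13 on the log2 scale. The rise was that of Tra2b, an exon enhancer binding protein, at 253 ± 8.32 CPM in NT, 320.5 ± 19.7 under Mycn-gRNA2 and 311 ± 4.52 under Mycn-gRNA3 (SD, n = 4 each; log2 change 0.32, adjusted p = 0.000412 in edgeR). Its paralog Tra2a fell by 0.25 (adjusted p = 0.00297 in edgeR), from 227 ± 13.1 CPM in NT to 196 ± 4.84 and 186 ± 9.42. Srek1, a regulator of splice site choice that binds SR proteins, fell by 0.29 (adjusted p = 0.00613 in edgeR). Srsf12, a family relative that is not a member here, was not called (0.30, adjusted p = 0.352 in edgeR).

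Among 19 kinases, phosphatases and importins of SR proteins, 3 were called higher and 2 lower (14.9% and 13% of all genes). Their median was -0.07. Clk1, a nuclear kinase that releases SR proteins from speckles, fell by 0.41 (standard error 0.122 and adjusted p = 0.0234 in edgeR), from 233 ± 5.75 CPM in NT to 189 ± 51.8 under Mycn-gRNA2 and 163 ± 21.3 under Mycn-gRNA3 (SD, n = 4 each). The phosphatase Ppm1g rose by 0.37 (adjusted p = 0.0188 in edgeR) and the kinase Akt1, which can phosphorylate SR proteins, by 0.38 (adjusted p = 0.0392 in edgeR). Of 26 hnRNP and PTB proteins, which often oppose SR proteins at exons, 0 were called higher and 6 lower. The shares over all genes were 14.9% and 13%, and the median of this list was -0.08. Hnrnpul2 fell by 0.29 (adjusted p = 0.000736 in edgeR), Ptbp3 by 0.29 (adjusted p = 0.00797 in edgeR) and Hnrnph2 by 0.21 (adjusted p = 0.0112 in edgeR).

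Of 29 core proteins of the spliceosome's snRNPs and SF3 complexes, 4 were called higher and 6 lower (14.9% and 13% of all genes). Their median was 0.07. Snrpd1, a component of the Sm ring, rose by 0.78 (standard error 0.0727 and adjusted p = 7.69e-06 in edgeR), from 60.9 ± 4.37 CPM in NT to 105 ± 6.89 and 105 ± 10.2 (SD, n = 4 each). Prpf3, a protein of the U4/U6 snRNP, and Sf3b1, which holds the branch point, each fell by 0.28 (adjusted p = 0.00211 and 0.00221 in edgeR). Of 15 genes of nonsense-mediated decay and the exon junction complex, 2 were called higher and 1 lower (14.9% and 13% of all genes). Their median was -0.02. Magohb, an exon junction protein, rose by 1.36 (adjusted p = 4.62e-05 in edgeR) at a low level, from 0.981 ± 0.216 CPM in NT to 2.66 ± 0.201 and 2.38 ± 0.348 (SD, n = 4 each), and it has a near-identical paralog, Magoh, with which reads can be shared. Smg8 rose by 0.27 and Smg6 fell by 0.16 (adjusted p = 0.00945 and 0.023 in edgeR). Of 11 mRNA export genes, 1 was called higher and 0 lower (14.9% and 13% of all genes). It was Nxt1, the partner of NXF1, with a rise of 0.53 (adjusted p = 0.00097 in edgeR). Per ERCC read, 44.4% to 81.8% of the genes in each of these 6 lists were called higher with both guides and 0 lower, where 56.4% of all genes were called higher and 0.931% lower.

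**Figure D4:**
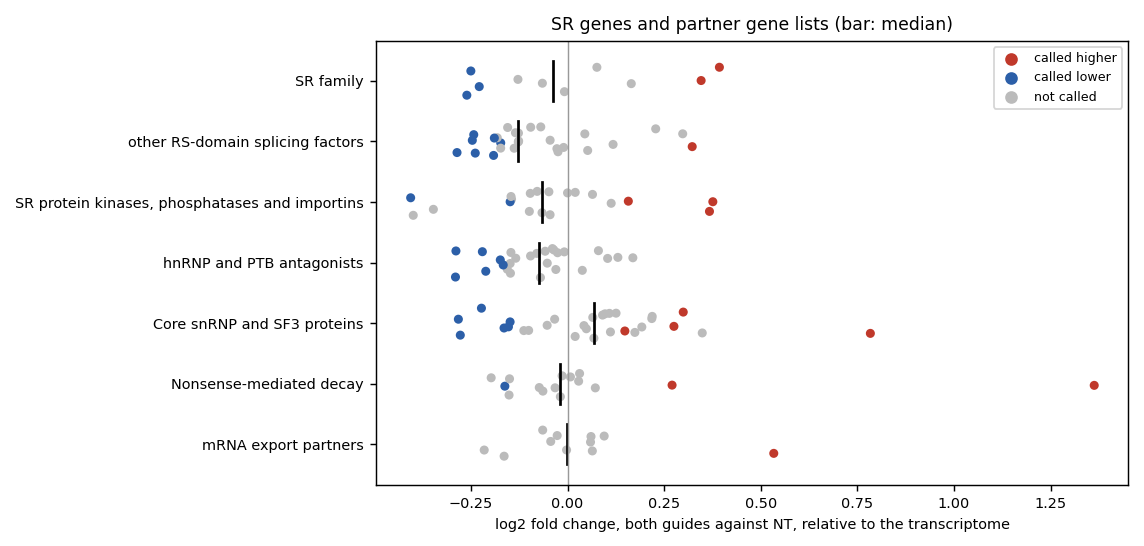
Log2 fold change of each gene with both guides against NT, relative to the transcriptome, for the SR family and 6 lists of partner genes (rows); red and blue points are called higher and lower (edgeR adjusted p under 0.05), grey points are not called, and the bar is the median of the list. The SR family spans -0.26 to 0.39 around a median of -0.04, and Magohb lies furthest right at 1.36. The list of hnRNP and PTB proteins has no red point, where 14.9% of all genes were called higher.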

How the data were processed

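The authors deposited raw read counts for 24421 genes and 92 ERCC RNAs, and log2 values of 12042 genes. They label the log2 values as normalized to cell number, and 1 alternative used them here on the scale per ERCC read. The submitters' processing notes name Trim Galore 0.4.0, featureCounts of Subread 1.5.0, edgeR 3.32.1 and mm10, with aligner, annotation release and strand setting not given in the sources used here. Sample titles gave groups and replicate numbers. Counts were fitted with edgeR 4.0.16 under R 4.3.3 (robust quasi-likelihood F test over all 12 libraries, 1 term per group, genes kept by filterByExpr), scaled by TMM factors over endogenous genes or by ERCC totals, with Benjamini-Hochberg adjustment over 14497 genes and calls under 0.05. The procedure was tested on simulated counts. CPM and RPKM came from the counts, and likeness and pairing from log2 CPM (prior count 2) of genes averaging at least 3. Depth gave every member at least 330 reads per library, and replicate pairs differed by more than sampling noise. Same-numbered libraries of the 2 guides deviated together in all 4 pairs (correlations 0.175 to 0.641). Differently numbered pairs ran from -0.644 to 0.471. Mycn-gRNA2 replicate 4 correlated more with Mycn-gRNA3 replicate 3 (0.471) than with Mycn-gRNA3 replicate 4 (0.175). The data therefore do not settle a pairing by number, and the labels give only the number.

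Named genes were the members, Mycn, Alkbh5, up to 3 called genes per partner list with the lowest adjusted p, and the nearest genes by likeness. Srsf12, Magoh and Gm12992 were named after values were seen. The members and lists were chosen with earlier results of these data known. Alternatives used DESeq2 1.42.0, limma 3.58.1, other scalings, no filter, fewer groups or replicates and a replicate block. Promoters came from RefSeq (GRCm38.p6) and exon models from GENCODE M21.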

Additional observations from a re-analysis of the deposited data

Results flagged for a closer look

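In 8 of the 60 combinations of member, group and scale, a single library stood apart from the other 3 by a gap above Dixon's 95% limit for 4 samples, a test that chance passes in about 1 of 20 groups. In CPM, Srsf3 stood at 418.7 in NT replicate 4 against 490.2 to 496.8 in the other NT libraries, and at 422.9 in Mycn-gRNA3 replicate 1 against 495.4 to 502. Srsf5 stood at 408.5 CPM in NT replicate 4 against 461.2 to 471.8, and at 440.3 CPM in Mycn-gRNA3 replicate 2 against 383.1 to 389.2. Srsf9 stood at 36.48 CPM in Mycn-gRNA2 replicate 1 against 65.07 to 70.44, and at 58.33 CPM in Mycn-gRNA3 replicate 1 against 66.15 to 67.73. Per 1000 ERCC reads, Mycn-gRNA3 replicate 4 held 47.24 reads of Srsf1 against 52.85 to 53.68 and 35.47 reads of Srsf6 against 40.58 to 41.19. No explanation of these values was tested.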

How the results depend on the processing

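Against NT, Srsf1 and Srsf2 kept their direction in all alternatives run and their calls on the relative scale in all but replicates 1 and 2 alone, where on the relative scale 0 members were called higher or lower with both guides, Mycn-gRNA2 or Mycn-gRNA3. In these fits 151, 32 and 200 of 14496 genes were called higher and 27, 1 and 26 lower. Per ERCC read these libraries called 1, 0 and 2 members higher in the same order, and 1101, 404 and 2784 of all genes. The number called lower on the relative scale with Mycn-gRNA2 (2) was 1 when only the groups compared were fitted. The number called lower with Mycn-gRNA3 (1) was 4 when only the groups compared were fitted, 3 with DESeq2, 2 with the replicate block and 2 with replicates 3 and 4 alone. Over all genes these 4 fits called 2822 of 14298, 2011 of 14497, 2053 of 14497 and 2816 of 14640 lower, against 1774 of 14497. With Mycn-gRNA2 the fit of only the groups compared called 578 of 14155 lower, against 1022 of 14497. Replicates 3 and 4 alone called 7 members higher per ERCC read with Mycn-gRNA2, against 2, and 8080 of 14640 genes, against 3817 of 14497. Leaving out each library in turn, the members called lower on the relative scale numbered 1 to 4 with both guides (1 without NT replicate 3), 1 to 3 under Mycn-gRNA2 and 1 to 4 under Mycn-gRNA3, and those called higher per ERCC read 3 to 7 with both guides (3 without NT replicate 4) and 2 to 4 with Mycn-gRNA2 (4 without Mycn-gRNA2 replicate 1). These fits tested 14574 to 14643 genes. Over all of them, 1276 to 2951 were called lower with both guides, 591 to 1897 under Mycn-gRNA2 and 1087 to 2803 under Mycn-gRNA3. Per ERCC read, 5479 to 10133 were called higher with both guides and 1813 to 7849 with Mycn-gRNA2. Without NT replicate 3, 1276 were called lower with both guides, against 1878 in the fit reported. Without NT replicate 4, 5838 were called higher per ERCC read, against 8177. The causes were not tested. The replicate block, a term for the shared replicate number, changed no other count by over 1.5 times. Same-numbered NT and guide libraries had correlations of -0.0818 to 0.36 for Mycn-gRNA2 and 0.06 to 0.288 for Mycn-gRNA3. Differently numbered pairs ran from -0.511 to 0.354 and from -0.441 to 0.258. Between the guides, same-numbered pairs ran from 0.175 to 0.641 and the others from -0.644 to 0.471. The ranges overlap in each case, so these values do not settle whether equal numbers mean more than a label. With the block 0 members were still called between the guides on either scale.

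None of the values that changed sign was a call in the fit reported. On the relative scale with replicates 1 and 2 alone, Srsf4 was -0.0568, Srsf9 -0.0566 and Srsf11 0.0495 with Mycn-gRNA2, Srsf3 was -0.10 with Mycn-gRNA3, and Srsf2 was 0.00267 between the guides. With replicates 3 and 4 alone, Srsf3 was 0.10 with both guides and 0.0685 with Mycn-gRNA2, and Srsf1 was -0.00988 and Srsf4 -0.00459 between the guides. With upper quartile factors Srsf3 was 0.00175 with both guides. Per ERCC read with replicates 1 and 2 alone, Srsf7 was -0.00532 with both guides, Srsf3 -0.0336, Srsf5 -0.22 and Srsf7 -0.26 with Mycn-gRNA2, and Srsf11 0.0143 between the guides. With replicates 3 and 4 alone, Srsf1 was -0.0197, Srsf2 -0.0466, Srsf4 -0.0100, Srsf6 -0.0682 and Srsf10 -0.0655 between the guides, and limma on the deposited log2 values gave 0.00736 for Srsf11. Leaving out each library, the relative change of Srsf3 ran from -0.0654 to 0.0490 with both guides, -0.13 to 0.0837 under Mycn-gRNA2 and -0.0426 to 0.0713 under Mycn-gRNA3, and that of Srsf4 from -0.0404 to 0.14 with Mycn-gRNA2. Between the guides, Srsf1 ran from -0.0494 to 0.0599, Srsf2 from -0.0645 to 0.00925, Srsf3 from -0.0696 to 0.15, Srsf4 from -0.0194 to 0.16, Srsf7 from -0.0115 to 0.15 and Srsf9 from -0.0545 to 0.21. Per ERCC read, Srsf5 ran from -0.0654 to 0.13 and Srsf7 from -0.11 to 0.0921 with Mycn-gRNA2, and between the guides Srsf6 ran from -0.00929 to 0.17 and Srsf11 from -0.11 to 0.0793. In the fit reported, Srsf4 and Srsf9, the members with the fewest reads, had the widest standard errors. For Srsf9 this depended on Mycn-gRNA2 replicate 1 on the relative scale. Without that library its standard error with both guides was 0.0625, against 0.136 with it, and below the 0.0675 of Srsf3.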
